A study of Mus musculus with 3 samples.

Results

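The genes examined were those of prostaglandin synthesis, breakdown and reception in cells sorted from mouse leptomeninges, the thin inner membranes around the brain. They were 10 genes chosen by symbol: the synthases Ptgs1, Ptgs2, Ptgds, Ptges and Ptgis, the breakdown enzyme Hpgd, and the receptors Ptger2, Ptger3, Ptger4 and Ptgfr. Each symbol stood on 1 of the 46983 gene rows of the count table, and all 10 had counts in every library. The samples were 3 bulk RNA libraries of 1 group, the pia-enriched fraction of vehicle-treated mice. The vehicle, and the strain, genotype, sex and age of the mice, are not given in the sources used here. No second group was analysed here, so the comparisons are between genes and between replicate libraries. The labels do not say whether the libraries came from separate animals, so the spread between them may be technical.

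Prostaglandins are short-lived lipid signals made from arachidonic acid, which phospholipases release from membranes. A cyclooxygenase, encoded by Ptgs1 or Ptgs2, turns the acid into an unstable intermediate, and terminal synthases turn that into prostaglandin D, E or I types or thromboxane. Each type acts on its own G-protein-coupled receptors, and the oxidising enzyme encoded by Hpgd inactivates the E and F types. Leptomeningeal cells are a known site of Ptgds expression in the brain, and the enzyme is secreted into cerebrospinal fluid.

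The start regions of the cyclooxygenase genes and of the most abundant synthases are shown because levels of these genes are set against each other below. Sequences are from RefSeq on GRCm38.p6, 5′ to 3′ on the gene's strand, with motif matches in capitals. RefSeq windows of 300 bases around the start were found for 9 of the 10 genes, Ptgis excepted. The first 3 lines give the 250 bases before the start of Ptgs1 (chr2:36230176-36230425, plus strand), Ptgs2 (chr1:150099781-150100030, plus strand) and Ptges (chr2:30903298-30903547, minus strand). Starts are those of RefSeq, which match the gene coordinates given below for Ptgs1 and Ptgs2. For Ptges and Ptgds they lie inside the GENCODE gene span, which begins farther upstream. The fourth line gives 30 bases just after the start of Ptgs2 (chr1:150100035-150100064), and the last gives 30 bases before the start of Ptgds (chr2:25469767-25469796, minus strand).
Ptgs1 upstream: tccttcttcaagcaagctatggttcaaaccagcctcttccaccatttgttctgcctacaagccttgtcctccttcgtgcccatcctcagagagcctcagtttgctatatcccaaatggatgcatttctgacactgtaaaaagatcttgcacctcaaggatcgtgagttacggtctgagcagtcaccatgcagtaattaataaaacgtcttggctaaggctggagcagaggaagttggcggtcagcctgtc
Ptgs2 upstream: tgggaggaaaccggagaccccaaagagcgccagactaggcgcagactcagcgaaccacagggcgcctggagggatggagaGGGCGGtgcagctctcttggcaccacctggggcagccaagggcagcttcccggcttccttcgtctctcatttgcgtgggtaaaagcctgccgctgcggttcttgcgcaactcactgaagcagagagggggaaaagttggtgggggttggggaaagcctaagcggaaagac
Ptges upstream: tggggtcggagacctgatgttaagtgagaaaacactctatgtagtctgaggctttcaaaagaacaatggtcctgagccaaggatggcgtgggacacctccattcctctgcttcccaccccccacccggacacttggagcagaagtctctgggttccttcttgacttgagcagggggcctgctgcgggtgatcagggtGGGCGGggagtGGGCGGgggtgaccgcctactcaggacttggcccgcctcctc
Ptgs2 after start: tcaccactACGTCACGTGgagtccgcttta
Ptgds before start: ggaggccaagccTGACTCAtaaataggggg

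The motifs were searched on both strands of the 300-base windows. The TATA box was read as TATAAA, the GC box as GGGCGG, the core of a cyclic AMP response element as ACGTCA, the E box as CACGTG, the AP-1 site as TGANTCA and the CCAAT box as in its name. The Ptgs2 window held GGGCGG once, and ACGTCA and CACGTG once each, with these last motifs sharing 2 bases. Over all 32851 windows of the table, ACGTCA was found in 7.51% and CACGTG in 7.15%. The Ptgs1 window held none of the 6 motifs. The Ptges window held GGGCGG 2 times, a motif found in 35.7% of all windows, and that of Ptgds held TGANTCA 1 time, found in 7.81%. TATAAA was found in 1 of the 9 windows, that of Hpgd, against 13.6% of all windows. The Hpgd match begins at base 5 after the start, not before it. The 250 bases before Ptgs2 share 183 bases with exons of the noncoding gene Ptgs2os, and those before Ptgds share 93 with GENCODE exons of Ptgds itself. These matches are descriptions of letters, and no binding was measured.

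Gene counts per library lay between 21002860 and 28704952. Values below are counts per 1000000 (CPM) on library sizes scaled by TMM, and a count of 0 allows up to 3 counts, which is 0.101 to 0.152 CPM. No molecular identifiers were used and PCR copies are not separate molecules, so such limits and the intervals below cover counting error only. The fibroblast markers (Col1a1, Col1a2, Col3a1, Dcn, Lum, Pdgfra) were all detected and summed to 23467, 29100 and 25292 CPM in libraries 1, 2 and 3. Library 1 stood apart: transcripts of low GC content were depleted in it relative to the others. It also held fewer transcripts of macrophages and microglia (7.63, 172 and 490 CPM summed over 7 markers) and of choroid plexus epithelium (57.9, 1717 and 2674 CPM over 5 markers, led by Ttr). Mast cell markers showed the same direction (8.49, 27.2 and 84.0 CPM over 4). In bulk RNA, fewer cells of a type and less RNA per cell cannot be told apart.

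Ptgs2, the inducible cyclooxygenase, was the more abundant of the 2 cyclooxygenase genes. Ptgs2 (ENSMUSG00000032487.8, chromosome 1, 150100031 to 150108227 on GRCm38, plus strand) stood at 287, 309 and 121 CPM (libraries 1 to 3 in order, as throughout), with a mean of 239 ± 103 (SD, n = 3). Ptgs1 (ENSMUSG00000047250.13, chromosome 2, 36230426 to 36252272, plus strand), the constitutive enzyme, was at 38.3, 28.7 and 39.0 CPM, a mean of 35.3 ± 5.78 (SD, n = 3). Ptgs1 was thus nearly level across libraries, whereas Ptgs2 was low in library 3 and close to equal in the other libraries.

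Per kilobase of exon, the scale on which genes can be compared, Ptgs2 was at 62.8, 67.5 and 26.4 CPM per kilobase and Ptgs1 at 9.86, 7.38 and 10.0. The level of Ptgs2 was 6.36, 9.15 and 2.63 times that of Ptgs1. On the log2(CPM per kilobase + 1) scale the difference was 2.30 ± 0.89 (SD, n = 3), in the same direction in 3 of 3 libraries. An exact permutation test that flips signs (two-sided) returned p = 0.25, the smallest value that 3 libraries allow. Ptgs2 made up 72.5% to 90.1% of the summed level of both genes. The direction held after each alternative processing, with differences between 1.93 and 2.79. Library scaling cancels within a library, and the GC content and length trends described below cancel over libraries. Runs that changed only those could hardly move the mean difference.

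Ptgs2 is also an immediate early gene, so other such genes were read beside it. All 10 of a list of immediate early genes were detected, and they summed to 8360, 5292 and 4879 CPM. Fos, Nr4a1 and Zfp36, the 3 most abundant, were at 3597, 2312 and 2351 CPM, at 1990, 1137 and 900 CPM, and at 1118, 612 and 454 CPM. Of the 10 genes, 9 were highest in library 1, as were 39.6% of all genes past the filter, and 5 each were lowest in libraries 2 and 3. Ptgs2 was highest in library 2 and lowest in library 3 as scaled, and highest in library 1 with trends removed (453, 232 and 102 CPM). Whether tissue dissociation contributed to the level of Ptgs2 was not tested.

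Among terminal synthases, those of the D, E and I types were all abundant, and Ptgds led. Ptgds (ENSMUSG00000015090.13, chromosome 2, 25466709 to 25470046, minus strand), the lipocalin-type prostaglandin D synthase, was at 647, 239 and 518 CPM, a mean of 468 ± 208 (SD, n = 3). Ptges (ENSMUSG00000050737.13, chromosome 2, 30889471 to 30929863, minus strand), the microsomal prostaglandin E synthase, was at 523, 243 and 311 CPM, a mean of 359 ± 146 (SD, n = 3). Both were lowest in library 2 and highest in library 1, by 2.70 and 2.15 times. With the GC content and length trends described below removed, Ptgds was at 526, 284 and 539 CPM, highest in library 3, and its log2 range was 0.92 in place of 1.43.

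Ptgis (ENSMUSG00000017969.13, chromosome 2, 167191805 to 167240604, minus strand), the prostacyclin synthase, was at 218, 182 and 195 CPM, a mean of 198 ± 18.2 (SD, n = 3). It was the steadiest of the abundant genes. Its log2 range of 0.26 lay at percentile 12.2 of the ranges of all 14409 genes past the filter, against 89.5 for Ptgds and 78.9 for Ptges.

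Per kilobase, Ptgds was at 393, 145 and 314, Ptges at 133, 61.8 and 79.1, and Ptgis at 84.8, 70.8 and 76.0 CPM per kilobase. Ptgds lay above Ptges in 3 of 3 libraries, by 1.58 ± 0.38 on the log2 scale (SD, n = 3; exact sign-flip permutation p = 0.25, two-sided). Ptges and Ptgis could not be ordered, with Ptges higher in 2 of 3 libraries and a difference of 0.17 ± 0.43. Of the summed level of 7 terminal synthases, Ptgds took 63.9%, 50.2% and 64.8%, Ptges 21.7%, 21.4% and 16.3%, and Ptgis 13.8%, 24.5% and 15.7%. The remaining synthases Ptges2, Ptges3, Hpgds and Tbxas1 took small shares in each library, and the largest of their mean shares was 2.19%, of Ptges3.

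**Figure D1:**
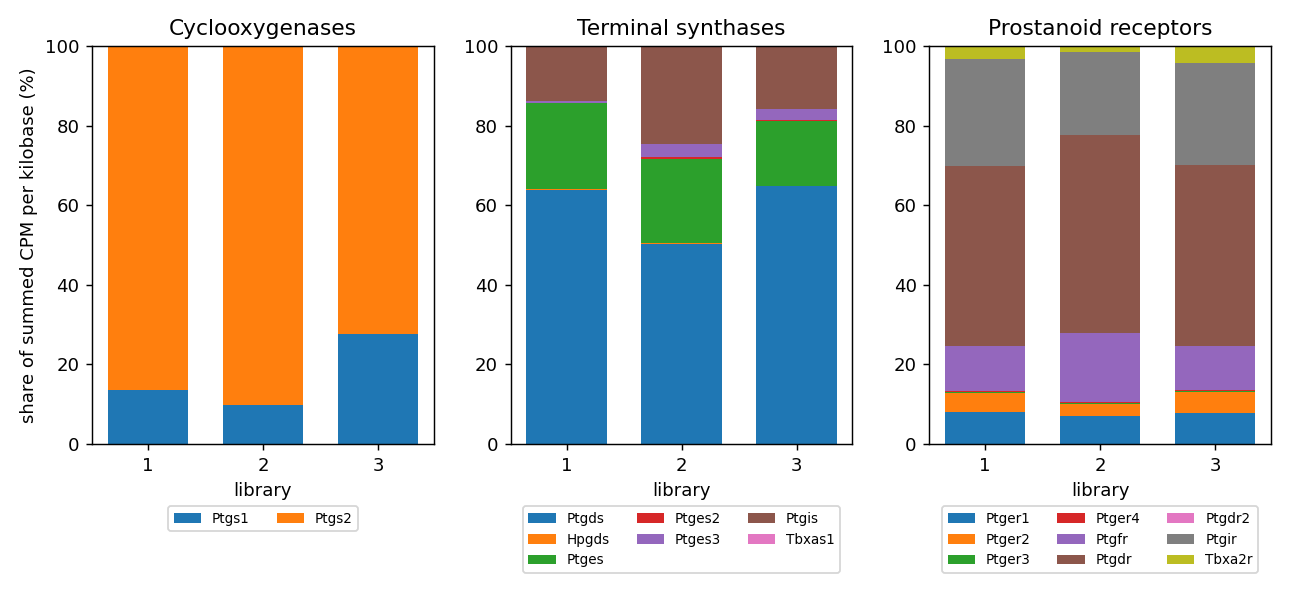
Share of each gene in the summed CPM per kilobase of exon (vertical axis, %) of the 2 cyclooxygenase genes, 7 terminal synthases and 9 prostanoid receptors, in each of 3 libraries (horizontal axis). Ptgs2 holds 72.5% to 90.1% of the first bar group, Ptgds 50.2% to 64.8% of the second, and Ptgdr 45.1% to 49.6% of the third.

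Other cell types are known to express these synthases, and their markers were read beside them. Ptgds is also made by oligodendrocytes and choroid plexus epithelium. Oligodendrocyte markers summed to 1281, 1057 and 1939 CPM over 5 genes. Most of that was Mbp, which Schwann cells express too, while Mog, restricted to oligodendrocytes, had 6, 0 and 17 counts. Arachnoid barrier markers stood at 93.3, 86.2 and 89.1 CPM over 6 genes. Of these, Cldn11 (34.7, 25.1 and 32.4 CPM), Krt19, Krt18, Cdh1 and Dpp4 were detected in every library, and Dsp had 0, 9 and 0 counts.

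The summed choroid plexus markers were lowest in library 1, where Ptgds was highest as scaled. Those markers were highest in library 3, where Ptgds was highest with trends removed (526, 284 and 539 CPM). Endothelial markers, read beside Ptgis, summed to 90.2, 64.5 and 76.2 CPM over 6 genes, and mural markers to 3193, 2755 and 4891 CPM over 6. Schwann cell markers stood at 1990, 1779 and 2885 CPM over 5, astrocyte markers at 43.9, 37.7 and 60.3 CPM over 4, and neuron markers at 66.1, 86.8 and 80.9 CPM over 4. The part of these cells in the synthase levels was not tested.

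Hpgd (ENSMUSG00000031613.8, chromosome 8, 56294585 to 56321043, plus strand), which inactivates prostaglandins by oxidation, was expressed beside the synthases. It was at 92.4, 112 and 70.7 CPM, a mean of 91.7 ± 20.7 (SD, n = 3), highest in library 2 and lowest in library 3. With trends removed it was at 133, 91.7 and 60.0 CPM, highest in library 1. Per kilobase, as scaled, it stood at 54.9, 66.6 and 41.996, which overlapped the range of Ptgs2. As scaled, Hpgd was lower than Ptgis in 3 of 3 libraries, by 0.52 ± 0.39 on the log2 scale, and lower than Ptgds in 3 of 3. With trends removed, Hpgd lay above Ptgis per kilobase in library 1. There it was at 133 CPM over 1683 exon bases, and Ptgis at 183 CPM over 2567.

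The receptor genes were less abundant per kilobase than Ptgds, Ptges and Ptgis in every library and differed widely among themselves. Ptgfr (ENSMUSG00000028036.6, chromosome 3, 151796502 to 151837630, minus strand), the receptor for the F type, was at 41.0, 71.3 and 35.2 CPM, a mean of 49.2 ± 19.4 (SD, n = 3). Ptger2 (ENSMUSG00000037759.5, chromosome 14, 44988195 to 45003820, plus strand), an E-type receptor that raises cyclic AMP, was at 13.4, 9.34 and 12.6 CPM, a mean of 11.8 ± 2.16 (SD, n = 3). Ptgfr was highest in library 2, where Ptger2 was lowest. With trends removed Ptgfr was highest in library 1, at 63.8, 53.4 and 30.2 CPM.

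Ptger4, the other E-type receptor that raises cyclic AMP, and Ptger3, an E-type receptor that lowers it, were close to the limit of detection. Ptger4 (ENSMUSG00000039942.15, chromosome 15, 5206661 to 5244187, minus strand) had 12, 16 and 16 counts, or 0.606, 0.538 and 0.617 CPM. Ptger3 (ENSMUSG00000040016.16, chromosome 3, 157566892 to 157645888, plus strand) had 5, 19 and 15 counts, or 0.253, 0.638 and 0.578 CPM. For Ptger3 the exact 95% Poisson interval in library 1 was 0.0820 to 0.589 CPM. It overlapped those of libraries 2 (0.384 to 0.997 CPM) and 3 (0.324 to 0.954 CPM). Overlap of intervals is not a test of the difference, so whether the lower Ptger3 value in library 1 exceeded counting error was not settled. Ptger4 and Ptger3 could not be ordered per kilobase.

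The highest receptor levels were of genes outside the 10. Ptgdr, the receptor for the D type, was at 75.7, 95.5 and 67.4 CPM, and Ptgir, the prostacyclin receptor, at 47.3, 41.9 and 39.8 CPM. Per kilobase these were means of 24.95 and 12.9, against 7.26 ± 2.86 for Ptgfr and 2.27 ± 0.42 for Ptger2 (SD, n = 3). Of the summed level of 9 prostanoid receptors, Ptgdr took 46.7% ± 2.52, Ptgir 24.5% ± 3.25 and Ptgfr 13.4% ± 3.53 (SD, n = 3). Ptger2 took 4.37% ± 1.21, while Ptger3 and Ptger4 took 0.163% and 0.169% on average.

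Ptgdr shares 705 exon bases with the pseudogene Gm16976 on the opposite strand (68, 70 and 41 counts), and without strand their reads cannot be told apart. Tbxa2r, the thromboxane receptor, was at 3.28, 1.75 and 3.74 CPM. Ptgdr2, the second receptor for the D type, had 0, 7 and 0 counts. Ptgfrn, a partner protein of the F-type receptor, was at 25.6, 27.7 and 19.6 CPM.

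Of the 10 genes themselves, 5 share exon bases with another gene, always on the opposite strand: Ptgs1, Ptgis, Ptger2, Ptger4 and Ptgfr. The longest of these overlaps was 1015 bases of Ptger4 with the pseudogene Gm15937, which had 0 counts in every library. Ptgfr shared 329 bases with Gm43618, which had 35, 66 and 97 counts. Ptger4 shared 82 bases with Ttc33, at 612, 1340 and 1032 counts, so the few Ptger4 counts are uncertain.

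The rest of the pathway was given by 28 genes on 5 lists, of which 26 had a count in some library and 22 passed the filter. Their median level was 3.49 CPM per kilobase, against 30.7 for the 10 genes and 3.70 for all genes past the filter. The 10 genes and the lists were chosen with earlier results of these data known, so these medians are descriptions only. By the edgeR goodness-of-fit test described below, 0 of the 22 were called variable between libraries, where 0.437% of all genes tested were called.

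Of 9 phospholipase genes, Pla2g4a, the cytosolic enzyme that releases arachidonic acid, was the most abundant at 170, 216 and 173 CPM. Pla2g6 was at 36.2, 21.8 and 21.9 CPM and Pla2g5 at 12.1, 8.23 and 11.0 CPM. The remaining 6 had means of at most 4.14 CPM. That highest value was of Pla2g2d, whose counts were 0, 191 and 156. Pla2g2a had no count in any library.

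Of 8 further synthase genes, 7 had counts. Cbr1, a carbonyl reductase that can form the F type from the E type, was at 119, 72.1 and 76.0 CPM. Fam213b, an F-type synthase, was at 88.2, 36.5 and 33.7 CPM and Akr1b3 at 68.8, 51.0 and 54.1 CPM. Ptges2 stood at 5.71, 5.07 and 6.09 CPM, far below Ptges. Ptges3, also a chaperone partner, was at 5.15, 21.9 and 29.999 CPM, with an edgeR goodness-of-fit p of 0.005493 before and 0.2902 after Benjamini-Hochberg adjustment. Akr1c18 had no count.

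Hpgds, the blood-cell type of D synthase, and Tbxas1, the thromboxane synthase, are known from macrophages, mast cells and platelets. Hpgds was at 0.758, 3.56 and 3.66 CPM and Tbxas1 at 1.92, 1.88 and 5.09 CPM. Per kilobase, the mean level of Ptgds was 284 and that of Hpgds 0.414. Hpgds was lowest in library 1, as the macrophage and mast cell markers were. With the GC content and length trends removed it was at 1.58, 2.55 and 3.09 CPM, still lowest there. The log2 difference of Hpgds in library 1 from the mean of the others was -1.39 as scaled and -0.56 after that removal. Platelet markers summed to 21.1, 17.0 and 36.6 CPM over 4 genes. Whether those cells were the source of Hpgds or Tbxas1 was not tested.

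Breakdown enzymes other than Hpgd were Ptgr1 at 30.3, 34.5 and 40.9 CPM, Ptgr2 at 72.9, 115 and 81.7 CPM, and Zadh2 at 33.4, 52.4 and 59.7 CPM. All 3 were lowest in library 1 as scaled. With the GC content and length trends removed, Ptgr2 was at 96.3, 95.5 and 74.2 CPM, lowest in library 3. Ptgr1 and Zadh2 were still lowest in library 1. The transporters stood at 40.6, 52.9 and 42.5 CPM for Slco2a1, which takes prostaglandins into cells, and at 42.8, 31.2 and 37.0 CPM for Abcc4, which exports them. Both transporters were thus detected in every library, with Slco2a1 highest and Abcc4 lowest in library 2.

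As scaled, the 10 genes fell into a largely steady order per kilobase. From the highest mean it ran Ptgds, Ptges, Ptgis, Hpgd, Ptgs2, Ptgs1, Ptgfr, Ptger2, Ptger4 and Ptger3. Of their 45 pairs, 39 were in the same order in 3 of 3 libraries, and 40 to 43 when a library was left out. The 6 pairs that crossed were Ptges with Ptgis, with Hpgd and with Ptgs2, Hpgd with Ptgs2, Ptgs1 with Ptgfr, and Ptger4 with Ptger3. Pairs were not counted with the GC content and length trends removed. Per kilobase, that removal put Hpgd and Ptgs2 above Ptgis in library 1, and Ptges above Hpgd and Ptgs2 in every library. By the exact sign-flip permutation test no pair could fall below p = 0.25, or 0.288 after Benjamini-Hochberg adjustment over the 45 pairs.

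Against all genes past the filter, Ptgds lay at percentiles 99.1, 98.1 and 99.1 of the per-kilobase level in libraries 1, 2 and 3. Ptges, Ptgis, Hpgd and Ptgs2 lay between 87.3 and 97.0, whereas Ptger2 lay between 32.1 and 44.5. Ptger3 and Ptger4 lay below percentile 1 in each library.

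**Figure D2:**
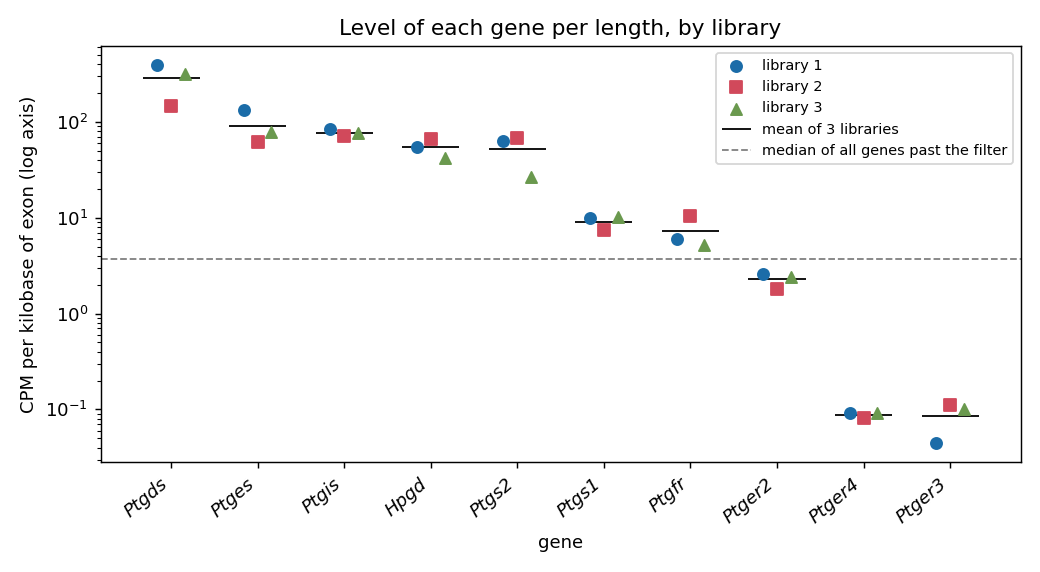
CPM per kilobase of exon on a log axis (vertical) for the 10 genes (horizontal), with 1 point per library, a bar at the mean of 3 libraries and a dashed line at the median of all genes past the filter (3.70). The synthases and Hpgd lie above the line in all 3 libraries, and Ptger2, Ptger3 and Ptger4 below it.

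Whether a gene varied between libraries beyond the dispersion trend was tested by goodness of fit in edgeR over 14409 genes, and p-values adjusted by Benjamini-Hochberg were called below 0.05. It called 63 genes, 0.437% of those tested. Of the 10 genes, 9 passed the filter, which Ptger3 missed through its 5 counts in library 1, and 0 of the 9 were called. None had an unadjusted p below 0.05, by this test or with the dispersions of DESeq2, against 1015 of all genes by this test. None was called either with DESeq2 size factors (0.396% of genes called), plain totals (0.507%), no filter on low counts (0.534%), a mean count of at least 10 (1.1%), a common dispersion (0.59%) or DESeq2 dispersions (0.507%). Leaving out library 1, 2 or 3 also gave no call among them (0.175%, 0.192% and 0.0816% of genes called).

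The lowest adjusted p-values by edgeR were 0.7935 for Ptgs2 and 0.7953 for Ptgds. Their log2 ranges were 1.34 and 1.43, against a median of 0.57 over the 10 genes and 0.67 over all genes past the filter. The other 7 adjusted values were 0.9997. Library 2 was lowest in 6 of the 10 genes, against 32.3% of all genes past the filter, and library 1 in 1, against 40.4%.

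**Figure D3:**
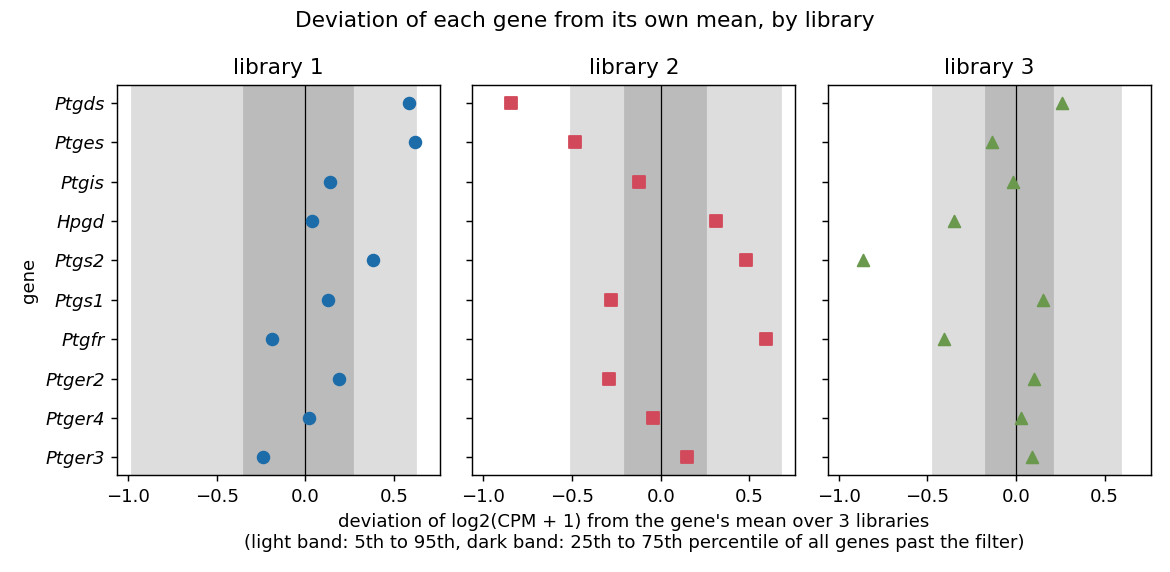
Deviation of log2(CPM + 1) from each gene's mean over 3 libraries (horizontal) for the 10 genes (vertical), in 1 panel per library; the bands give the central ranges of all genes past the filter. Ptgds in library 2 and Ptgs2 in library 3 lie outside the 5th to 95th percentile band.

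Base composition moved with these differences. In the 1438 genes with the lowest GC content (median 39.9%), the median log2 difference of library 1 from the mean of the others was -1.07, and in the 1438 with the highest (median 59.4%) it was 0.36. The 10 genes span this range: the longest transcripts of Ptgs2, Hpgd and Ptgfr had 40.02%, 40.5% and 40.7% GC, and those of Ptgds and Ptgis 56.4% and 56.6%. Ptgs2 stood at 0.57 on that log2 difference, where the trend with GC content and length put it at -0.98. Hpgd stood at 0.05, where the trend put it at -0.78. Of the 9 genes tested, 8 lay above the trend in library 1, Ptgis excepted, as did 52.2% of all genes.

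**Figure D4:**
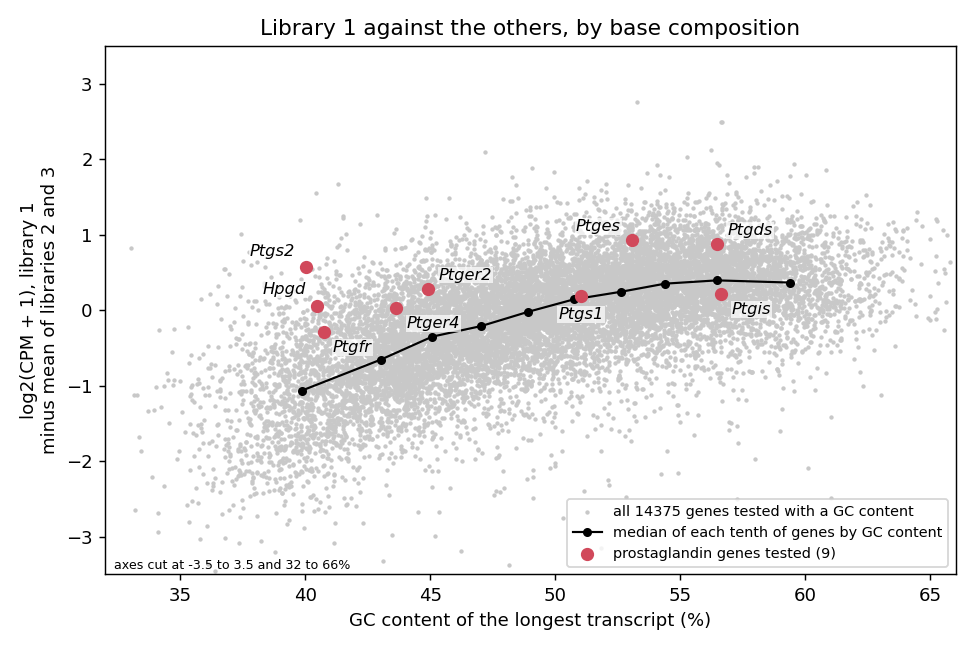
Difference of log2(CPM + 1) between library 1 and the mean of libraries 2 and 3 (vertical) against the GC content of the longest transcript (horizontal, %), for all genes tested (grey), 10 bins of genes by GC content (black line of medians) and the 9 prostaglandin genes tested (red). Ptgs2, at 40.02% GC, lies at 0.57 where genes of like GC content have a median near -1.07.

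With the trends of GC content and length removed, Ptgs2 was the 1 of the 9 genes that was called. It stood at 453, 232 and 102 CPM in libraries 1, 2 and 3, a log2 range of 2.14 (edgeR goodness of fit, adjusted p = 0.02617), in a fit that called 0.689% of 14375 genes. The order of libraries 1 and 2 thereby turned, while library 3 was lowest on both scales. That order also turned for Hpgd and Ptgfr, and, from higher to lower in library 1, for Ptgis (183, 208 and 203 CPM). The other 8 genes were not called, with adjusted values of at least 0.8536.

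The call of Ptgs2 was lost when any 1 library was left out. With the trends removed and 1 library left out, its adjusted p was 0.2052 without library 1, 0.05169 without library 2 and 0.9827 without library 3. Without trend removal and without library 1, 3 of the 10 genes had an unadjusted p below 0.05, as did 867 of the 15460 genes tested. The adjusted p-values by edgeR goodness of fit were 0.1482 for Ptgs2, 0.4305 for Ptgds and 0.5683 for Ptgfr. Ptgs2 and Ptgfr had lower values in library 3 than in library 2, and Ptgds a higher one, and none of these passed the threshold.

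**Figure D5:**
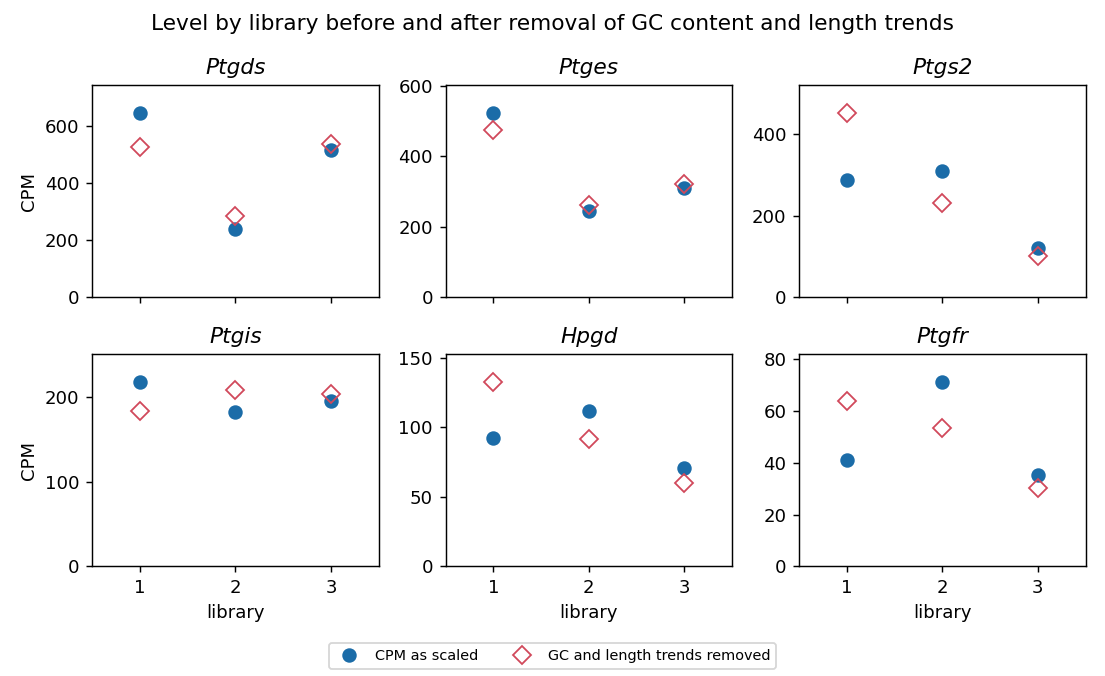
CPM (vertical, from 0) in each of 3 libraries (horizontal) for 6 of the genes, as scaled (filled circles) and after removal of GC content and length trends (open diamonds). Ptgs2 in library 1 moves from 287 to 453 CPM, and Ptgis stays between 182 and 218 CPM on both scales.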

How the data were processed

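RNA of the sorted cells (2 ng, integrity number 9.7 to 10) was amplified as cDNA over 12 cycles and sequenced in paired 50 bp reads, per the labels' protocols. The deposited values are counts per gene, made with HTSeq 0.5.3 on mm10, per the submitters' processing notes. The aligner, annotation release and strand setting are not given in the sources used here. The 5 counter rows for reads of no gene held 45.6%, 39.1% and 39.6% of each library's reads, in order, and entered no library size or test. Of the gene identifiers, 98.9% matched GENCODE M21 (GRCm38) without version, which gave coordinates, exon lengths and the GC content of the longest transcript.

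TMM factors from edgeR 4.0.16 (R 4.3.3) scaled the libraries, and low genes were removed by filterByExpr (minimum count 10). With 1 group there is no contrast for a quasi-likelihood test. The test used was edgeR's goodness of fit of an intercept-only model (chi-square on 2 degrees of freedom). Tests on simulated data came first, but required recovery of changed genes only at a dispersion below that of these libraries. Power at their own dispersion is not given, so a gene not called may still vary. GC content and length trends were natural splines with 4 degrees of freedom each, fitted per library to log2(CPM + 1). Differences on that scale understate the change of low genes. Alternatives were size factors and dispersions of DESeq2 1.42.0, plain totals, other filters, lengths and pseudocounts, trend removal, and each library left out. The rule for named genes took the 10 members, the pathway lists, the 3 most abundant of side lists and summed marker lists. Low phospholipase genes are given by their count and highest mean, and the level of 1 receptor on the pathway lists is not reported here. Single marker genes named beside a sum were chosen after their values were seen. Members and lists were chosen with earlier results of these data known.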

Additional observations from a re-analysis of the deposited data

How the results depend on the processing

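The count of genes called variable between libraries (63) was 134 with no filter on low counts, 181 with a filter on a mean count of at least 10, and 99 with GC content and length trends removed. It ranged from 12 to 28 when each library was left out, which leaves fewer samples. The count of the 10 genes called (0) became 1 with trends removed, which was Ptgs2, and remained 0 under the other settings, among them each library left out. Trend removal together with leaving out each library, added after seeing the data, also gave 0. The share of all genes called was not counted for those runs. The median log2 range of the genes (0.57) was 0.92 with trends removed, over the 9 genes fitted; the cause was not tested. Between highest and lowest library, trend removal took Ptgs2 to 2.14, Hpgd to 1.13, Ptger2 to 0.99 and Ptger4 to 0.75, and a pseudocount of 0.1 took Ptger3 to 1.07 and Ptger4 to 0.17. Plain totals took Ptgis from 0.26 to 0.12. The number of genes with a mean of at least 10 CPM was 8 and Ptgs2 lay above Ptgs1 under each alternative run. From 39 to 43 pairs kept 1 order without division by length, with the longest transcript or with each library left out. Pair order was not counted with trends removed. Plain totals and trend removal could by construction hardly move the mean difference of Ptgs2 and Ptgs1. No paired analysis was possible because all 3 libraries belong to 1 group. Depth limited Ptger3 and Ptger4, at 5 to 19 counts.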

Other observations

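The leukotriene and lipoxygenase branch, which competes for the same arachidonic acid, was sparse beside the prostaglandin genes. Of 9 genes on the list, 8 had a count in some library and 5 passed the filter. The list median was 0.264 CPM per kilobase, against 3.49 for the 28 other pathway genes and 3.70 for all genes past the filter. The 10 prostaglandin genes, chosen with earlier results of these data known, had a median of 30.7. Lta4h, which also acts as an aminopeptidase, was the exception at 86.9, 103 and 103 CPM in libraries 1, 2 and 3. Alox5ap, the partner protein of the first enzyme of the branch, was at 1.67, 3.46 and 6.02 CPM and Alox12 at 4.597, 1.61 and 4.59 CPM. Alox5, that first enzyme, had 0, 0 and 35 counts, chosen for naming after its values were seen. By edgeR goodness of fit, 0 of the 5 genes were called variable between libraries, where 0.437% of all genes tested were called.

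Genes whose pattern over the 3 libraries was most like that of Ptgds were Atp5k, Gchfr and Plxdc1, with largest differences in log2 deviation of 0.0221, 0.0306 and 0.0364. For Ptgs2 they were Gm37090, Mx2 and Hpse2, with 0.0427, 0.0431 and 0.0628. Atp5k was at 51.6, 18.1 and 39.99 CPM and Mx2 at 16.5, 17.5 and 6.67 CPM, while the other 4 had at most 5.41 CPM in any library. With 3 points, 18 genes lay within 0.1 of the Ptgds pattern and 10 within 0.1 of that of Ptgs2, so the likeness is a description of these libraries.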
